A study of Oryza sativa with 7 samples.

Results

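The genes described here are 139 transcripts of young rice grains that stood high in 1 osbzip76-2 library. Each was there at least 2.5 times its level in any of the other 5 libraries analysed. They are the rows of the authors' table that carry a RAP identifier (the rice annotation project's gene code, whose first digits name the chromosome), reach at least 5 RPKM in that library, and are at least 2.5 times the highest of the other 5 libraries. RPKM scales the reads of a gene by the length of its model and by the total reads of the library. The rule left out Os06g0133000 and 7 glutelin rows. The 139 were found among 35484 rows with a RAP identifier, and made up 0.945% of the 14705 such rows that reached 5 RPKM in the library. The genes were thus chosen by their RPKM in all 6 libraries, and their height in the osbzip76-2 library is a description that carries no test.

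The series measured poly(A) RNA of whole caryopses, collected 2 days after fertilization from field-grown plants. The genotypes are the mutant alleles osbzip76-2 and osbzip76-1, which carry independent lesions in the bZIP gene OsbZIP76, and the wild type (WT), cultivar Kitaake by the sample names. Analysed were 1 osbzip76-2 library (replicate 2), 2 osbzip76-1 libraries and 3 WT libraries, while osbzip76-2 replicate 1 was not analysed here. The labels give no count of plants per library, and the nature of each lesion is not stated. The series text says that summer heat sped up grain development in WT and mutants alike. With 1 library, the osbzip76-2 allele and the particular sample it came from cannot be told apart.

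The caryopsis, or rice grain, holds embryo and endosperm inside maternal layers. Its endosperm starts as a syncytium of free nuclei, becomes cellular, and then fills with starch and storage proteins such as the glutelins. Basic leucine zipper (bZIP) proteins are transcription factors that bind DNA as dimers, and several of them switch on storage genes in cereal grains. The labels call the tissue caryopsis, while the extraction text names endosperm. In bulk RNA of such a grain, fewer cells of a type and less RNA per cell cannot be told apart.

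The rule took only rows with a RAP identifier, so rows that carry a symbol in its place fell outside it. The gene table used here was searched by those identifiers only and matched no member. All members are thus given by identifier, and they may have names that this search missed. Of 50 marker symbols listed for grain tissues and possible foreign tissues, 10 were found as rows. AGPL2, part of the ADP-glucose pyrophosphorylase that feeds starch synthesis, had 192.9 RPKM in the osbzip76-2 library, 192.8 and 167 RPKM in the osbzip76-1 libraries, and 37.9 to 87.4 RPKM in WT. MST8, a sugar transporter listed for pollen and anther, was listed at 0 in all 6 libraries. None of the 10 met the thresholds, the highest ratio of the osbzip76-2 library to the highest other library being 1.57 for WRKY71. WRKY71, listed for heat and stress, still varied among the libraries. It had 9.28 RPKM in osbzip76-2, 1.61 and 5.57 RPKM in osbzip76-1, and 2.09, 5.89 and 1.67 RPKM in WT replicates 1 to 3. The summed level of the 10 was 462 RPKM in the osbzip76-2 library, 424 and 437 RPKM in osbzip76-1, and 197 to 281 RPKM in WT. Much of that sum was AGPL2, AGPS2 and MADS58, so it does not speak for all 10. AGPS2 had 81.9 RPKM in osbzip76-2, 84.4 and 85.9 RPKM in osbzip76-1, and 29.4 to 48.6 RPKM in WT. MADS58 had 102.4 RPKM in osbzip76-2, 92.4 and 113.3 RPKM in osbzip76-1, and 85.7 to 97.4 RPKM in WT. OSH1 had 5.16 RPKM in osbzip76-2, 7.56 and 4.11 RPKM in osbzip76-1, and 3.00 to 6.08 RPKM in WT. The part of cell composition in the results below was not tested.

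Library depth was even, with 16898109 to 21108201 recovered reads in genes per library. WT replicate 2 stood apart from the other WT libraries. In it 128 rows were at least 2.5-fold below all other libraries while these had at least 5 RPKM, against 3 rows in the osbzip76-2 library and 0 to 2 rows in each of the remaining 4 libraries. The osbzip76-2 library stood apart in the other direction. With the thresholds turned on each library in turn, 141 rows were high in the osbzip76-2 library (the 139 and 2 of the rows left out), 2 and 4 in the osbzip76-1 libraries, and 1, 20 and 0 in WT replicates 1 to 3. Without WT replicate 2 in the comparison, the counts were 160 for osbzip76-2, 4 and 4 for osbzip76-1, and 1 and 0 for WT replicates 1 and 3.

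**Figure D1:**
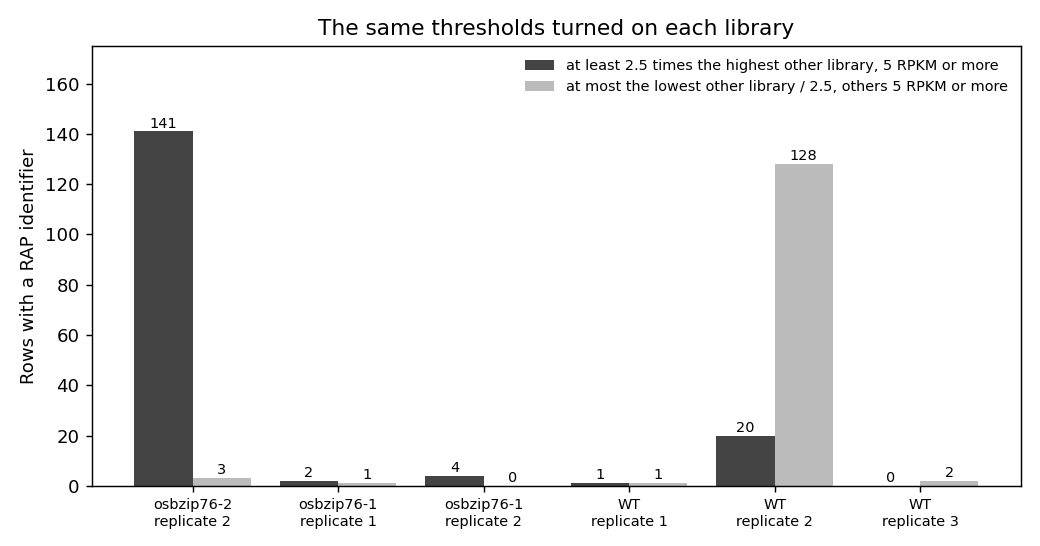
Rows with a RAP identifier that passed the same thresholds turned on each library (dark bars, high; grey bars, low), by library. The osbzip76-2 library has 141 high rows and WT replicate 2 has 128 low rows, while no other bar exceeds 20.

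The 139 genes were mostly scarce elsewhere. Their median level was 11.1 RPKM in the osbzip76-2 library, 1.09 and 1.29 RPKM in osbzip76-1 replicates 1 and 2, and 0.887, 1.39 and 0.886 RPKM in WT replicates 1 to 3. The median ratio of the osbzip76-2 library to the highest other library was 6.23, with quartiles of 3.63 and 9.42. The ratio was under 5 for 57 genes, between 5 and 10 for 53, and 10 or more for 29, the gene with no read elsewhere included. In the osbzip76-2 library 63 genes stood under 10 RPKM, 63 between 10 and 50 RPKM, and 13 at 50 RPKM or more. High is meant relative to the other libraries: 25 members reached 5 RPKM in at least 1 of those too.

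The genes rest on ample reads in the library that chose them. Between 43 and 8040 reads per gene were recovered there, with a median of 340. Together the 139 genes took 0.424% of the reads in genes of the osbzip76-2 library (exact 95% interval 0.421% to 0.427%, counting error only). They took 0.0460% and 0.0596% in the osbzip76-1 libraries and 0.0406%, 0.0625% and 0.0453% in WT replicates 1 to 3. Without the pair of genes with most reads the share was 0.343% in osbzip76-2, 0.0362% and 0.0397% in osbzip76-1, and 0.0296% to 0.0444% in WT. In all, 15 genes were listed at 0 in at least 1 of the 5 other libraries, with 10 of them at 0 in WT replicate 2, 7 in WT replicate 3, 5 in WT replicate 1 and 3 in each osbzip76-1 library.

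**Figure D2:**
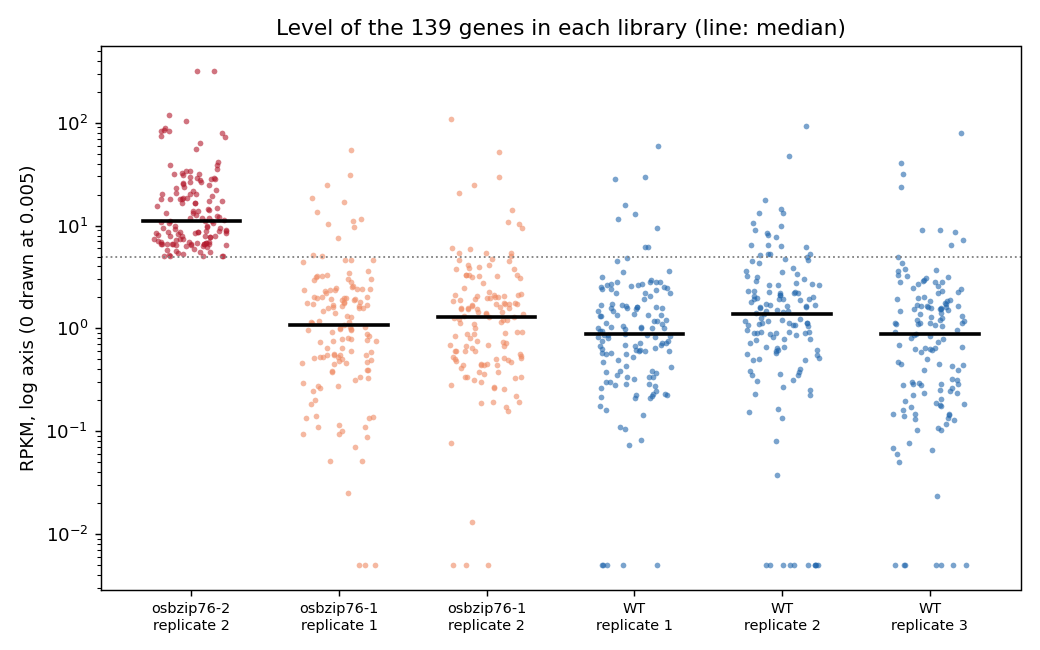
RPKM of the 139 genes (points, log axis) in each library, with the median as a black line and the 5 RPKM threshold as a dotted line. The osbzip76-2 points lie above the threshold by the rule, and the medians of the other 5 libraries lie between 0.886 and 1.39 RPKM.

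A run of neighbouring genes on chromosome 1 held the most abundant members. Os01g0124200 had 321 RPKM in the osbzip76-2 library, 54.0 and 109.6 RPKM in osbzip76-1, and 59.5, 93.2 and 80.3 RPKM in WT replicates 1 to 3. It was thus expressed in every library, and the osbzip76-2 library was 2.93 times the highest other. Os01g0124401, the next identifier in the table, had 319.9 RPKM in osbzip76-2, 24.6 and 51.7 RPKM in osbzip76-1, and 28.3, 47.9 and 40.3 RPKM in WT. The ratio of reads between them differed in that library. Os01g0124401 had 1.00 reads per read of Os01g0124200 in osbzip76-2, 0.458 and 0.474 in osbzip76-1, and 0.477, 0.516 and 0.504 in WT replicates 1 to 3. If the gene models share sequence, reads can be split between them, and this was not tested.

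The same run held 3 more members. From Os01g0123900 to Os01g0124650 the table has 8 rows, and 5 of them are members. Os01g0124650 had 83.3 RPKM in osbzip76-2, 13.4 and 24.6 RPKM in osbzip76-1, and 29.9, 13.2 and 31.8 RPKM in WT. Its WT replicate 2 value was below both other WT values, unlike Os01g0124200. Os01g0123900 and Os01g0124100 were low genes, at 6.65 and 6.64 RPKM in osbzip76-2 and at most 2.12 and 1.73 RPKM elsewhere. Of the 3 rows between that are not members, Os01g0124000 had 1.63 RPKM in osbzip76-2 and at most 0.293 RPKM elsewhere, while Os01g0124550 was listed at 0 in all libraries and Os01g0124600 in all but WT replicate 1. The next row on each side of the run stayed under 0.1 RPKM in every library.

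**Figure D3:**
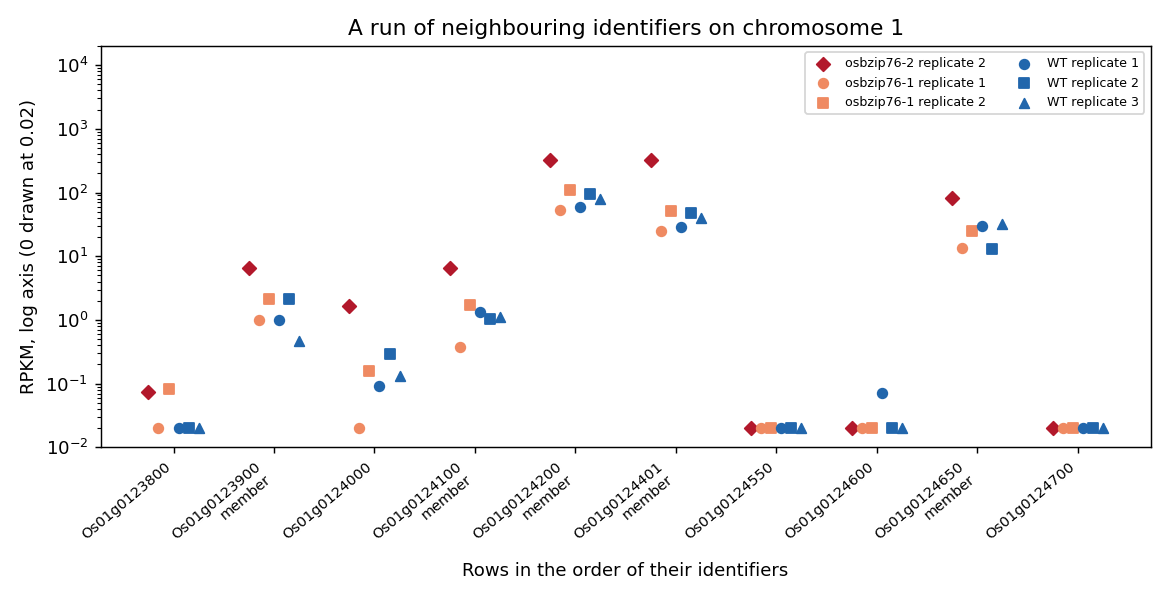
RPKM (log axis) of the rows of the chromosome 1 run and the row on each side, in the order of their identifiers, with a symbol for each library. In the 5 members the osbzip76-2 diamond lies above every other symbol, from 6.64 RPKM in Os01g0124100 to 321 RPKM in Os01g0124200, while rows at or near 0 lie among them.

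Members lay on 12 chromosomes. Chromosome 1 held 26 of the 139 and chromosome 6 held 18, or 18.7% and 12.9% of the members against 13.9% and 8.32% of all rows with a RAP identifier. Chromosome 9 held 4, or 2.88% against 5.60% of rows. In 8 cases the next row of the table was also a member, and 15 members stood in such places. One such neighbour pair on chromosome 2 is Os02g0150250 and Os02g0150200. Os02g0150250 had 28.1 RPKM in osbzip76-2, 0.0936 and 1.15 RPKM in osbzip76-1, and 0.618, 0.662 and 0.224 RPKM in WT. Os02g0150200 had 6.92 RPKM in osbzip76-2, 0.1003 and 0.284 RPKM in osbzip76-1, and 0.0828, 0.355 and 0.160 RPKM in WT. Outside the osbzip76-2 library these levels rest on 1 to 13 reads per library for Os02g0150250 and 1 to 4 reads for Os02g0150200.

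The members had short gene models. Their recovered length had a median of 1101 bases with quartiles of 724 and 1674, against a median of 1538 with quartiles of 1038 and 2156 for all rows at 5 RPKM or more in the osbzip76-2 library. RPKM divides by length, and shorter genes at a given RPKM rest on fewer reads. The part of the rule in this difference was not tested.

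Some members were nearly silent outside the osbzip76-2 library. Os02g0772100 had 14.6 RPKM there, from 103 reads, and was listed at 0 in the other 5 libraries. With a limit of 3 reads over those 5 libraries together, it was at least 163-fold higher in the osbzip76-2 library. Os10g0315400 had 12.3 RPKM in osbzip76-2, from 1043 reads, and 1 read in all other libraries together, in osbzip76-1 replicate 2. Its depth-corrected ratio was 4962 with an exact 95% interval from 889 to 196174. Os12g0223700 had 18.6 RPKM in osbzip76-2, 0.0934 and 0 RPKM in osbzip76-1, and 0.231, 0 and 0 RPKM in WT. Its 236 reads stood against 4 in the other libraries, a ratio of 281 (exact 95% interval 108 to 1039). Os08g0541800 had 26.5 RPKM in osbzip76-2, 0.648 and 0 RPKM in osbzip76-1, and 0, 0.164 and 0.148 RPKM in WT. These ratios and intervals compare libraries and cover counting error only. The genes were chosen by these same values, and the intervals do not allow for that choice.

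Others among the 10 with the largest ratio after 0.1 RPKM was added to each value were Os11g0255200, Os12g0465100, Os06g0679400 and Os01g0581400. Without that addition they stood at 29.0, 18.3, 18.3 and 14.7 times the highest other library. Os11g0255200 had 31.9 RPKM in osbzip76-2, 0.275 and 0.605 RPKM in osbzip76-1, and 0.682, 0.0811 and 1.10 RPKM in WT. Os12g0465100 had 31.2 RPKM in osbzip76-2, 1.33 and 1.59 RPKM in osbzip76-1, and 1.61, 0.313 and 1.70 RPKM in WT. In both of these WT replicate 2 was the lowest library. Os01g0581400 had 73.1 RPKM in osbzip76-2, 2.83 and 3.31 RPKM in osbzip76-1, and 1.59, 4.96 and 1.48 RPKM in WT, and there WT replicate 2 was the highest of the 5.

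The rule says nothing about the order of the other 5 libraries, and in that order WT replicate 2 came first most often. It was the next highest library for 70 of the 139 genes (50.4%). Of the 80 members with a mean of at least 1 RPKM over these 5 libraries, it was next for 37 (46.2%). The share was 29.6% among all 21328 genes at that level. Of the 139, an osbzip76-1 library was next for 49 genes, WT replicate 1 or 3 for 19, and no library for the 1 gene at 0 elsewhere. The 70 genes with WT replicate 2 next had a median of 10.7 RPKM in osbzip76-2, 0.797 and 0.821 RPKM in osbzip76-1, and 0.753, 2.04 and 0.571 RPKM in WT replicates 1 to 3. After median-ratio scaling of the libraries, 69 genes had WT replicate 2 next.

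The spread within WT was wide in these genes. In 48 of the 139 (34.5%) WT replicate 2 was at least 2 times both other WT libraries. Among the 80 members with a mean of at least 1 RPKM over the 5 libraries the share was 28.8%, against 1.59% of all 21328 genes at that level and 2.44% of the 10842 of them with a mean under 10 RPKM. WT replicate 1 was at least 2 times both other WT libraries in 5 members (3.60%). Among the 80 it was so in 1 (1.25%), against 0.183% of all genes at that level and 0.332% of those with a mean under 10 RPKM. WT replicate 3 was so in 3 members (2.16%), or 2 of the 80 (2.5%), against 0.605% and 1.11%. In the opposite direction, WT replicate 2 was at most 0.5 times both other WT libraries in 17 members (12.2%). Among the 80 that share was 12.5%, against 6.45% of all 21328 genes and 9.94% of those with a mean under 10 RPKM. These shares are descriptions. The WT libraries differed among themselves in these genes while sharing 1 genotype label.

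**Figure D4:**
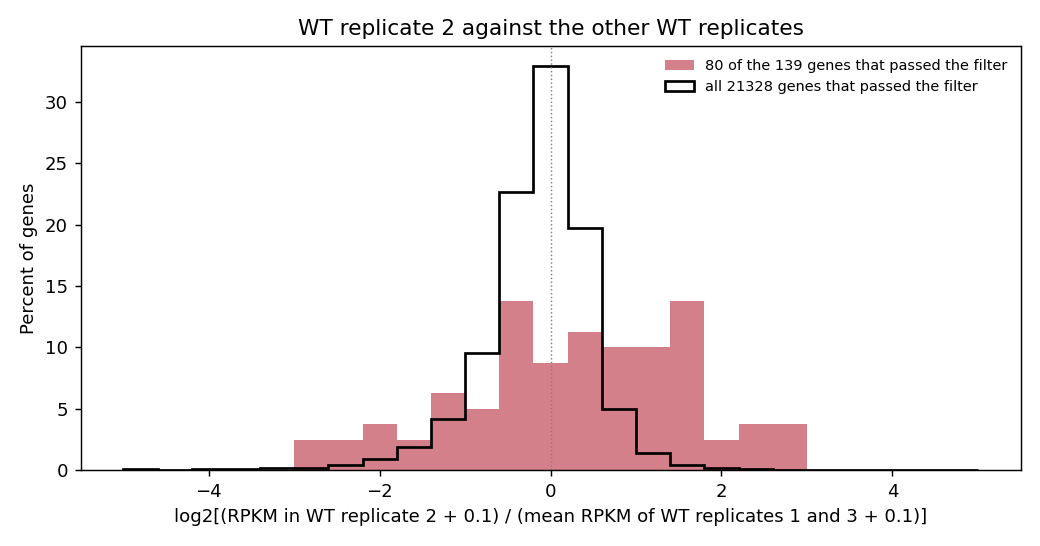
Distribution of log2 of WT replicate 2 over the mean of WT replicates 1 and 3 (0.1 RPKM added to each), for the 80 members that passed the filter (red) and all 21328 genes that passed it (black line), in percent of genes. The members spread to both sides of 0, with more of them on the right, where WT replicate 2 is higher.

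The abundant genes with WT replicate 2 next had a common profile. Os05g0543000 had 118.8 RPKM in osbzip76-2, 3.65 and 5.40 RPKM in osbzip76-1, and 2.93, 14.6 and 1.53 RPKM in WT replicates 1 to 3. Os01g0369500 had 104 RPKM in osbzip76-2, 3.02 and 5.45 RPKM in osbzip76-1, and 2.60, 10.7 and 2.21 RPKM in WT. In each, WT replicate 2 exceeded every other library but osbzip76-2. Os04g0413100 had 83.4 RPKM in osbzip76-2, 2.52 and 3.84 RPKM in osbzip76-1, and 2.63, 13.4 and 1.07 RPKM in WT. Os12g0621400 had 74.2 RPKM in osbzip76-2, 3.15 and 4.76 RPKM in osbzip76-1, and 2.20, 6.34 and 2.00 RPKM in WT. In these 4 genes the order of the libraries was the same at the top, with osbzip76-2 first, WT replicate 2 next and osbzip76-1 replicate 2 after it.

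Over the 48 genes the median ratio of the osbzip76-2 library to WT replicate 2 was 7.50. Their medians were 14.6 RPKM in osbzip76-2, 0.781 and 0.737 RPKM in osbzip76-1, and 0.568, 2.00 and 0.461 RPKM in WT. The largest ratio of WT replicate 2 to the highest of the remaining 4 libraries, 5.42, was in Os06g0144200, at 15.0 RPKM in osbzip76-2, 0.273 and 0.515 RPKM in osbzip76-1, and 0.225, 2.79 and 0.509 RPKM in WT. It was picked with its values in view.

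The reverse set, the rows high in WT replicate 2 by the same thresholds, had the osbzip76-2 library next in 12 of 20. Among all genes tested it was the highest library apart from WT replicate 2 in 21.3%, and among the 339 of these in which WT replicate 2 was at least 2 times both other WT libraries it was so in 70.2%. These 339 include 23 members, in which the rule had already set the osbzip76-2 library highest. Os11g0102500 had 32.6 RPKM in osbzip76-2, 6.97 and 5.55 RPKM in osbzip76-1, and 14.7, 86.1 and 0 RPKM in WT replicates 1 to 3. Os02g0661100 had 19.1 RPKM in osbzip76-2, 4.75 and 9.33 RPKM in osbzip76-1, and 12.8, 65.2 and 5.02 RPKM in WT. Both were picked with their values in view. They were expressed in most libraries and varied within WT.

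The osbzip76-1 libraries also spread apart in these genes, in both directions. Replicate 2 was at least 2 times replicate 1 in 28 members (20.1%), or 15.0% of the 80, against 2.35% of all genes tested and 3.86% of those with a mean under 10 RPKM. Replicate 1 was at least 2 times replicate 2 in 16 members (11.5%), or 8.75% of the 80, against 0.806% and 1.53%. By sign alone, replicate 2 was above replicate 1 in 93 members (66.9%), or 66.2% of the 80, against 53.7% of all genes tested.

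The rule did not set osbzip76-1 against WT, but it did use the values of both. Every osbzip76-1 and WT value of a member is at most its osbzip76-2 value divided by 2.5. A gene raised in osbzip76-1 about as far as in osbzip76-2 was thus left out beforehand. The comparison of osbzip76-1 with WT can show only differences within that limit, and cannot say how often both alleles moved a gene alike. Of the 139 genes, 80 had a mean of at least 1 RPKM over the osbzip76-1 and WT libraries and were tested with limma on log2(RPKM + 1). The other 59 were too low. Past an adjusted p of 0.05 were 2 of the 80 (2.5%), both higher in osbzip76-1, beside 0.399% of all 21328 genes tested, or 0.277% higher and 0.122% lower. Before adjustment, 9 of the 80 were higher in osbzip76-1 with a limma p below 0.05, and 2 were lower. No such share by direction was worked out for all genes tested, so this split has no background beside it. With both directions pooled, the 11 of 80 (13.8%) stood against 14.0% of all genes tested. Without WT replicate 2 these shares were 29 of 76 members (38.2%) against 20.4% of genes. Without WT replicate 3 they were 17 of 80 members (21.2%) against 12.5%, and without WT replicate 1 they were 10 of 82 (12.2%) against 12.6%. With replicate number as a block they were 13 of 80 (16.2%) against 12.7%. Of the fits that left out 1 WT library, closeness to the background, both directions together, held only without WT replicate 1. It did not hold without WT replicate 2 or 3. Fits that left out an osbzip76-1 library kept 1 library of that group and are not compared. The median log2 fold change was 0.03 over the 80 and -0.02 over all genes tested.

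Os11g0644900 had 11.6 and 9.48 RPKM in the osbzip76-1 libraries and 2.83, 2.30 and 2.84 RPKM in WT, besides 29.2 RPKM in osbzip76-2. It was higher in 2 of 2 osbzip76-1 libraries than in every WT library (limma log2 fold change 1.65, SE 0.17, adjusted p = 0.0173). Os03g0601500 had 11.2 and 6.04 RPKM in osbzip76-1 and 0.939, 0 and 0.248 RPKM in WT, besides 33.9 RPKM in osbzip76-2. Its groups did not overlap either (limma log2 fold change 2.79, SE 0.36, adjusted p = 0.0376). Without WT replicate 2 both calls were kept, with limma adjusted p of 0.0037 and 0.00935. Both were lost without any other single library, with limma adjusted p from 0.0577 to 0.459 and log2 fold changes of 1.52 to 1.79 for Os11g0644900 and 2.39 to 3.18 for Os03g0601500. Where an osbzip76-1 library was left out, the lone one was assumed to vary like WT. Both were also lost with no filter on low genes, with adjusted p of 0.0613 and 0.0868, and with voom on the recovered reads, with adjusted p of 0.0934 and 0.139. With a pseudocount of 0.1 the call of Os03g0601500 was lost as well (limma adjusted p = 0.144).

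**Figure D5:**
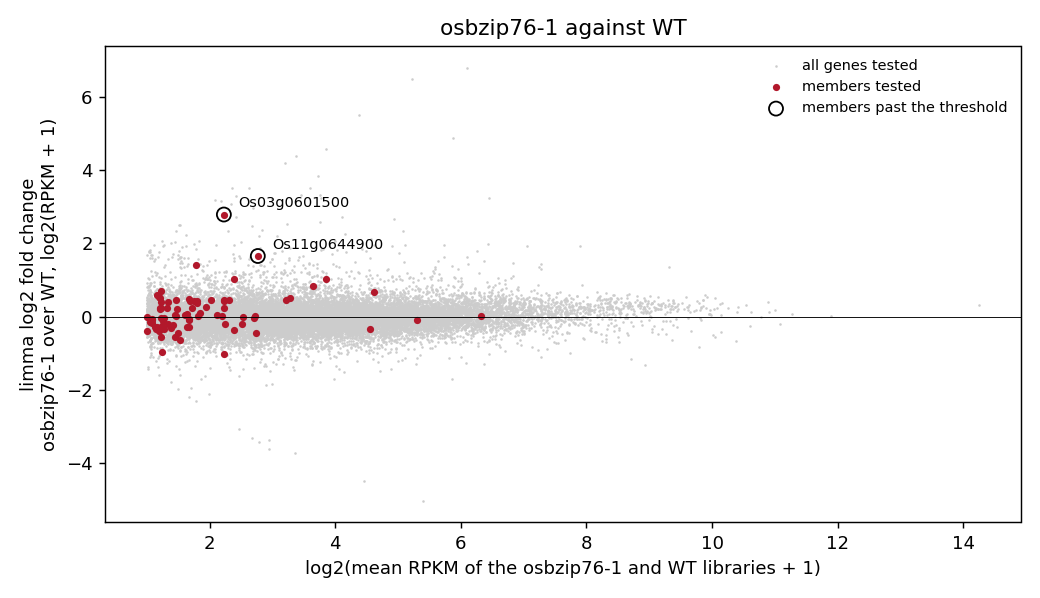
limma log2 fold change of osbzip76-1 over WT against log2 of the mean level over those 5 libraries plus 1, for all genes tested (grey) and the 80 members tested (red), with the members past the threshold circled. Os03g0601500 and Os11g0644900 stand above the other members, at 2.79 and 1.65, and most members lie near 0.

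Levels that did not overlap between these groups were found in both directions. Both osbzip76-1 libraries were above all WT libraries in 15 of the 80 members, or 18.8%, against 16.4% of all genes tested. Both were below all WT libraries in 6, or 7.5%, against 21.8%. Among the abundant members Os03g0639400 had 88.0 RPKM in osbzip76-2, 17.1 and 14.3 RPKM in osbzip76-1, and 11.5, 5.35 and 9.08 RPKM in WT (limma adjusted p = 0.278 for osbzip76-1 against WT). Os07g0106900 had 85.5 RPKM in osbzip76-2, 18.6 and 20.5 RPKM in osbzip76-1, and 13.02, 6.20 and 9.02 RPKM in WT (limma adjusted p = 0.202). Os08g0189100 had 78.8 RPKM in osbzip76-2, 31.1 and 29.7 RPKM in osbzip76-1, and 15.98, 17.7 and 23.5 RPKM in WT (limma adjusted p = 0.208). In these 3 the osbzip76-1 libraries lay between osbzip76-2 and WT, and osbzip76-1 did not pass against WT.

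In the other direction the lowest p was that of Os03g0650300. It had 6.70 RPKM in osbzip76-2, 0.597 and 0.438 RPKM in osbzip76-1, and 2.08, 2.11 and 1.64 RPKM in WT. Os04g0587100 had 54.96 RPKM in osbzip76-2, 2.36 and 1.43 RPKM in osbzip76-1, and 6.22, 4.71 and 3.77 RPKM in WT. Both had osbzip76-1 below all WT libraries and osbzip76-2 above them, and neither passed for osbzip76-1 against WT (limma log2 fold changes -0.95 and -1.02, adjusted p = 0.147 and 0.181). Both were picked with their values in view.

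Values near the thresholds show how gradual the boundary was. Just inside the ratio were Os11g0644900 at 2.52 and Os08g0189100 and Os02g0533800 at 2.54 times the highest other library. Just outside were Os08g0434100 and Os02g0214500 at 2.45 and Os11g0512000 at 2.39 times. By level, Os09g0554101, Os02g0272200 and Os02g0778600 were just inside, at 5.07, 5.08 and 5.09 RPKM in osbzip76-2. Os02g0559300, Os04g0604900 and Os09g0297800 were just outside, at 4.98, 4.97 and 4.89 RPKM.

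Of the rows that the rule left out, 2 met both thresholds. Os06g0133000 had 91.4 RPKM in osbzip76-2, 34.0 and 20.8 RPKM in osbzip76-1, and 9.79, 2.10 and 7.67 RPKM in WT. The glutelin row Os01g0762500 had 16.4 RPKM in osbzip76-2, 2.58 and 0.377 RPKM in osbzip76-1, and 3.58, 3.70 and 0.639 RPKM in WT. The other 5 glutelin rows analysed were 1.89 to 2.56 times the highest other library, and the 1 at 2.56 was under 5 RPKM.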

How the data were processed

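The authors deposited 1 table of RPKM values (reads scaled by gene model length and library total), per the file headers, with a column for 6 of the 7 labelled libraries. Poly-T beads selected the RNA and a NEBNext Ultra kit built the libraries, per the labels' protocols. The submitters' processing notes name the build IRGSP-1.0. What aligned and counted the reads, with which annotation and whether by strand, is not given in the sources used here, so neighbouring, overlapping or similar genes can share reads. The labels' series text calls the replicates biological.

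Whole reads were recovered as the numbers that make all values of a gene whole, given 1 length per gene. The smallest such length was taken, and a length was found for every gene with reads. All 168975 values above 0 thus came out whole within 0.02 reads. A multiple of the length and reads could fit too, so recovered reads are less sure for genes seen in few libraries. In simulated data 98.8% of 2065 genes with at least 50 reads in some library were recovered exactly. Recovered totals were 19900850 to 24887952 reads. Libraries held 26910 to 29012 genes with at least 1 read.

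For osbzip76-1 against WT, limma 3.58.1 in R 4.3.3 (lmFit, eBayes with trend, two-sided) was run on log2(RPKM + 1) of those 5 libraries, for the 21328 genes with a mean of at least 1 RPKM, with Benjamini-Hochberg adjustment. Such fold changes understate the change of low genes. On simulated reads for this comparison (21163 genes, 200 of them changed) the test recovered 85.0% of genes changed 2-fold and 100.0% of those changed 4-fold, with 4 false among 189 calls. The changed genes were drawn only from those with more expected reads, and the spread between libraries was set alike for all genes. No simulated library deviated as a whole. These rates thus may not hold here, nor for members with few reads. Intervals are exact (Clopper-Pearson). They do not allow for the choice of the members by the same values.

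Genes named are the 10 members highest in the osbzip76-2 library, the 10 with the largest ratio (0.1 RPKM added), those next to the thresholds, and those past the limma threshold, besides any said to be picked with their values in view. The members and lists were chosen with earlier results of these data known. One left-out row was not analysed here, and no sequences are shown because no reference sequence was used here. Alternatives were other thresholds, pseudocount, filter, scaling, voom, a replicate block, a 3-group fit and leaving out each library.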

Additional observations from a re-analysis of the deposited data

How the results depend on the processing

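The number of genes that met the rule was 174 at 2 times and 119 at 3 times the highest other library, 184 from 3 RPKM and 76 from 10 RPKM. It was 137 after median-ratio scaling, 136 of them among the 139, and 139 to 160 when 1 of the other libraries was left out. For osbzip76-1 against WT the count of all genes called was 16 to 554 when 1 library was left out (554 without WT replicate 2, at most 36 without any other). It was 59 to 98 under the other alternatives. The count of members called was 0 to 3 when 1 library was left out. It was 1 with a pseudocount of 0.1. It was 0 without a filter, with an unadjusted limma p under 0.05 in 24 of 138 members (17.4%) against 12.2% of genes. It was 0 with voom, with 11 of 80 (13.8%) against 13.3%. It stayed at 2 with median-ratio scaling and in the 3-group fit, where 138 members were tested in place of 80, the added ones only through the osbzip76-2 library, so that count is no support. The cause of these changes was not tested beyond the libraries left out. The labels do not say whether a replicate number marks a day or batch. Same-numbered libraries of osbzip76-1 and WT deviated from their group means with correlations of -0.01 and -0.10 across genes. With 2 osbzip76-1 libraries the deviations mirror each other, so these values cannot settle whether the numbers pair the libraries. WT replicate 2 was above both other WT libraries, and osbzip76-1 replicate 2 above replicate 1, in 54 members (38.8%). Among the 80 the share was 36.2%, against 18.9% of all genes tested. A fit with replicate number as a block called 61 genes and 2 members. The scaling factors moved no library by more than 0.08 on the log2 scale. Turned on the other libraries, the rule gave the same counts without WT replicate 2, except for osbzip76-1 replicate 1, with 4 in place of 2. With 1 osbzip76-2 library, no test of that allele was possible, and the lowest members rest on 43 reads or few more in it.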

Other observations

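The chitinase gene Cht9, whose row carries a symbol and so fell outside the rule, also met both thresholds. It had 13.3 RPKM in the osbzip76-2 library, 1.05 and 2.64 RPKM in osbzip76-1, and 1.69, 0.442 and 1.92 RPKM in WT replicates 1 to 3, and it was picked with its values in view.

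In 3 members WT replicate 3 and osbzip76-1 replicate 2 were at most 0.5 times the lowest of WT replicates 1 and 2 and osbzip76-1 replicate 1, against 14 of all 21328 genes tested. Os02g0453600 had 7.93 RPKM in osbzip76-2, 2.04 and 0.187 RPKM in osbzip76-1, and 1.17, 1.96 and 0.250 RPKM in WT. Os07g0206500 had 11.1 RPKM in osbzip76-2, 1.97 and 0.0774 RPKM in osbzip76-1, and 1.36, 2.61 and 0.197 RPKM in WT. Os02g0268100 had 6.27 RPKM in osbzip76-2, 0.996 and 0.313 RPKM in osbzip76-1, and 1.70, 1.71 and 0.290 RPKM in WT. The glutelin row Os01g0762500 also had osbzip76-1 replicate 2 and WT replicate 3 below the remaining 3 libraries of WT and osbzip76-1. This pattern was noticed in these data.

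The 3 rows low in the osbzip76-2 library by the mirrored thresholds included Os08g0535000, at 0.825 RPKM in osbzip76-2, 20.8 and 20.6 RPKM in osbzip76-1, and 22.0, 16.5 and 20.8 RPKM in WT. It was picked with its values in view, and it varied little among the other 5 libraries.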
